A study of Mus musculus with 57 samples.

Results

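Mediator is a large protein assembly that carries signals from DNA-bound transcription factors to RNA polymerase II. Its head and middle modules contact the polymerase, Med14 forms the backbone that joins the modules, the tail module is where many activators bind, and a dissociable kinase module (Cdk8 or its paralog Cdk19, cyclin C, Med12 or Med12l, Med13 or Med13l) controls whether the core can engage the polymerase. Mediator and TFIID, the factor to which the TAF proteins belong, meet at the same promoters during assembly of the preinitiation complex. The 33 genes described here were taken by symbol as the subunits of the head (7 genes), middle (9), tail (9) and kinase (7) modules plus Med14, out of 56557 genes in the deposited expression table, and each symbol was found.

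The libraries were made from 57 single mouse embryos of 3 lines named for Taf5, Taf12 and Taf13, which encode subunits of TFIID. Embryos were labelled WT, heterozygous (HET) or mutant (MUT). The series text describes the lines as knockouts, and the labels used here describe no allele, strain or litter. Blastocysts collected at E3.5 comprised 3 WT and 4 MUT embryos of the Taf5 line, 5 WT, 5 HET and 3 MUT embryos of the Taf12 line, and 4 WT, 4 HET and 3 MUT embryos of the Taf13 line. Taf12 outgrowths (OG) were E3.5 blastocysts cultured one by one for 72 h in medium with serum, with 4 WT, 3 HET and 4 MUT. Taf13 embryos at E6.5, just before gastrulation, comprised 4 WT, 9 HET and 2 MUT. No treatment was labelled for any group. Since separate litters are not given, p-values measure the spread between these embryos.

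Genotype labels were checked against the targeted transcripts. Taf5 was listed at 0 FPKM (fragments scaled for gene length and library depth, the deposited unit) in all 4 embryos labelled Taf5 MUT and at 51.9, 13.2 and 42 in the WT embryos. Taf12 was not lower in embryos labelled Taf12 MUT, at 56.3 to 67.5 FPKM against 36.2 to 51.3 in WT blastocysts and at 51.8 to 53.7 against 18.6 to 27 in WT outgrowths. Taf13 lay at 12.9, 30.7 and 29.6 FPKM in blastocysts labelled Taf13 MUT against 28.6 to 46.7 in WT, and at 34.3 and 27.1 against 25 to 47.5 at E6.5. The transcript level therefore checks the label in the Taf5 line only, and directions below are those of the libraries as labelled. Depth ran from 4.55 M reads in Taf12 OG MUT 3 to 21.6 M in a Taf13 E6.5 HET embryo, where M is mega and reads are those recovered from the deposited tables. Libraries Taf13 E6.5 WT 3 and HET 8 stood apart from their groups, as described with the E6.5 results. Taf12 E3.5 MUT 1 had the fewest genes above 0 of all libraries (11875), 3.59% mitochondrial reads against 1.58% to 2.91% in the other Taf12 blastocysts, the highest Med21 value, and the lowest Med13, Med16 and Med24 of the MUT blastocysts (4.19, 2.6 and 5.01 FPKM). Without it again 0 members were called there, and the Med21 change was 0.87 (limma adjusted p = 0.222). In whole embryos and outgrowths, fewer cells of a type and less RNA per cell cannot be told apart.

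Med21, a small middle module protein that pairs with Med7 in the hinge of the core, was the member most often higher in mutants. Its promoter, and for contrast that of Med11, the head module member with the largest fall in Taf12 outgrowths, are shown as given by RefSeq for GRCm38.p6, from 250 bases before to 50 bases after the start site. The deposited data were aligned to another build, GRCm39, per the submitters' processing notes. The Med21 window is chr6:146642329-146642628, plus strand, with the palindrome TGACGTCA, the cAMP response element recognised by CREB and ATF proteins, and the CCAAT box in either orientation in capitals. A pair of its CCAAT matches abut on opposite strands in ATTGGCCAAT. The Med11 window is chr11:70451668-70451967, plus strand, with the core of the Ets site CCGGAA, found here on the other strand, in capitals.
Med21: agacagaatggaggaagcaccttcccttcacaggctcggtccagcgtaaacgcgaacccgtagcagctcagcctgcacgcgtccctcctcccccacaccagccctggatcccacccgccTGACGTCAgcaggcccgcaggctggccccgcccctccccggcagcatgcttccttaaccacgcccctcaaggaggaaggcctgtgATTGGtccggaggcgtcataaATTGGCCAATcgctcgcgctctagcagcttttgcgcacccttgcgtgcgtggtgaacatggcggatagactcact
Med11: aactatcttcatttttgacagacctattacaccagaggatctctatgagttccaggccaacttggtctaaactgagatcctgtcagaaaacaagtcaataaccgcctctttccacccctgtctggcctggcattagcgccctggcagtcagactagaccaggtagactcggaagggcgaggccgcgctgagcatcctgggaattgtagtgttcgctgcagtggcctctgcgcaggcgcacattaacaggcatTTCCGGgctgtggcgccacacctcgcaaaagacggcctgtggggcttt

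Of 33 members, 28 had a promoter in the RefSeq table, with 32 windows in all. TGACGTCA began at position -131 of the Med21 window, and Med21 was the only 1 of the 28 with that sequence, which 1.79% of the 32851 promoters of the same length hold. CCGGAA was present in 14 of the 28 members (16 of 32 windows) against 14.9% of all promoters, and GGGCGG, the Sp1 box, in 19 (20 windows, 62.5%) against 35.7%. CCAAT was present in 11 members (37.5% of windows) against 37.4% of all promoters, and TATAAA in Med7, Med16 and Med28 (9.38% of windows) against 13.6%. GCATGCG, part of the NRF1 site, was present in Med4, Med15 and Med17 (12.5% of windows) against 3.58% of all promoters, and AAGATGGCG, the YY1 site, in 0 members against 1.4% of all promoters. Each motif was searched on both strands, and a match describes these letters only.

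Med21 stood higher in the mutants of all 3 lines at the blastocyst stage. In Taf5 blastocysts it was 28.4, 24.7 and 28.9 FPKM in WT and 58, 73.4, 42.5 and 39.1 FPKM in MUT. In Taf12 blastocysts it was 35.7, 26.5, 41.3, 21.4 and 24.4 FPKM in WT, 18.8, 33.6, 25.7, 27.6 and 20.4 FPKM in HET, and 115, 46.9 and 62.1 FPKM in MUT. In Taf13 blastocysts it was 31.1, 22, 26 and 29.8 FPKM in WT, 33.2, 25.3, 19.9 and 30.2 FPKM in HET, and 39.3, 56.7 and 52.7 FPKM in MUT. Every MUT embryo lay above every WT embryo in each line, while HET and WT embryos overlapped. On the log2(FPKM + 1) scale used for all tests the difference between MUT and WT was 0.90 ± 0.28 (SE) for Taf5, 1.23 ± 0.32 for Taf12 and 0.84 ± 0.24 for Taf13. None of these passed limma with Benjamini-Hochberg adjustment over all genes (adjusted p = 0.484, 0.079 and 0.336). The authors' deposited table, which sets MUT against WT for Taf5 and against WT and HET pooled for the other lines, lists Med21 as higher in all 3, with adjusted p of 0.0377, 5.27e-05 and 0.00107, and not at E6.5 in the Taf13 line (0.903).

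Separation of this kind was seen in 2 members in Taf5 blastocysts (Med21 and Med12; 4.6% of all genes), in 4 in Taf12 blastocysts (Med7, Med9, Med19 and Med21; 4.58%) and in 2 in Taf13 blastocysts (Med4 and Med21; 3.76%). In the other direction, every MUT below every WT, it was seen in 3 members in Taf12 blastocysts (Med11, Med16 and Med27; 5.19% of all genes) and in 0 in the Taf5 and Taf13 lines (5.26% and 4.67%). Among 10506 genes tested in all 3 blastocyst sets, 11 (0.105%) had every MUT above every WT in each line, and Med21 was the only Mediator member among them. In the other direction 22 genes (0.209%) did so, with 0 members. The others with MUT above WT were Brd2, F11r, Krcc1, Mdh2, Mfge8, Mrpl49, Mrpl57, Sap18, Slc35b2 and Uros. Brd2 encodes a bromodomain protein that binds acetylated histones, and Mrpl49 and Mrpl57 encode mitochondrial ribosomal proteins. With Taf12 outgrowths added, 9 of 9845 genes (0.0914%) kept this separation, again with Med21 as the only member. Over all 5 sets 1 of 9601 genes (0.0104%) did so, and it was not a member. No difference between the line effects on Med21 passed the test: the Taf12 effect minus the Taf5 effect was 0.34 (95% interval -0.57 to 1.24), Taf13 minus Taf5 was -0.06 (-0.79 to 0.68) and Taf12 minus Taf13 was 0.40 (-0.44 to 1.23). Med21 overlaps the start of Tm7sf3 on the other strand, and the strand setting of the counting is not given in the sources used here. Tm7sf3 was 169 to 324 FPKM in MUT and 179 to 331 in WT in Taf5 blastocysts, 105 to 269 and 135 to 221 in Taf12 blastocysts, and 128 to 317 and 155 to 257 in Taf13 blastocysts. In Taf12 outgrowths it was 20.8 to 63.7 FPKM in MUT and 64 to 134 in WT. The part of overlapping reads in the Med21 values was not tested.

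**Figure D1:**
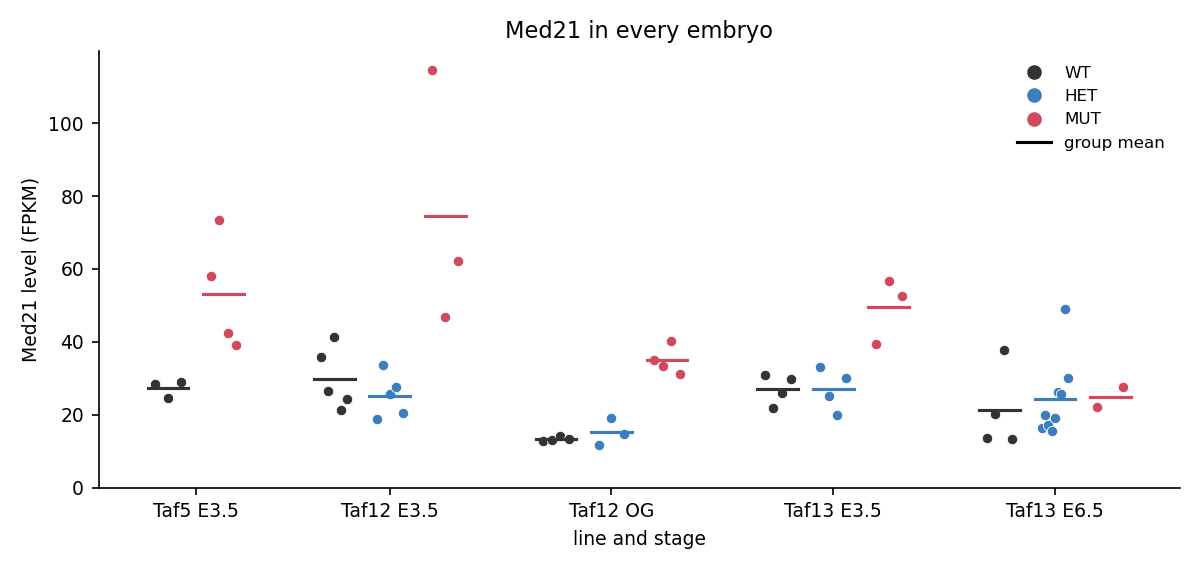
Med21 level in FPKM (y axis) in every embryo, by line and stage (x axis) and by genotype (colour), with a bar at each group mean. MUT points lie above all WT points in the blastocysts of the 3 lines and in Taf12 outgrowths, and between the WT points at E6.5 (22.1 and 27.6 against 13.3 to 37.7 FPKM).

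No member passed the test in Taf5 MUT, where 12 of 10843 genes did (0.111%), in Taf13 MUT (16 of 11975 genes, 0.134%) or in Taf12 MUT (184 of 12751 genes, 1.44%). At an unadjusted p under 0.05 these comparisons held 2, 1 and 8 members, against 8.13%, 9.34% and 16.1% of all genes. Med21 alone was called in Taf12 MUT by voom on the recovered reads (adjusted p = 0.0429), and against WT and HET pooled (0.0227). Every one of the 9 middle module members lay above 0 in Taf12 MUT, from 0.23 to 1.23 with a median of 0.41, where 44.5% of all genes did, and none passed. In the head 2 of 7 lay above 0, in the tail 3 of 9 and in the kinase module 4 of 7. Med9, a middle module subunit, was 112 to 116 FPKM in Taf12 MUT against 61.4 to 95.1 in WT (0.53 ± 0.17, adjusted p = 0.154). The groups did not overlap, and the authors' deposited table lists Med9 (adjusted p = 0.0326) and Med7 (adjusted p = 0.0416) as higher beside Med21, which makes 3 of 33 members where that table lists 9.71% of all genes. Med11 was 85.8, 68.7 and 59.8 FPKM in Taf12 MUT against 91.0 to 108 in WT, also without overlap (-0.45 ± 0.18, adjusted p = 0.226). In Taf13 MUT the next smallest p after Med21 belonged to Med4, a middle module member, at 34.3 to 38 FPKM against 21.9 to 33.7 (0.41 ± 0.21, adjusted p = 0.588).

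Med12 and Med14 are the X-linked members. In Taf5 blastocysts Med12, the kinase module subunit that activates the kinase, was 0.179, 0.718 and 2.17 FPKM in WT and 9.19, 5.37, 5.71 and 4.65 FPKM in MUT. Y-linked transcripts, on the log2 scale, were 7.86 to 8.24 in WT 1, WT 3 and MUT 3 and at most 0.108 in the other 4, so embryo sex was unevenly spread over these groups. With Y-linked level as a term the Med12 difference was 1.94 (adjusted p = 0.744). The groups did not overlap, yet the values rest on only 4 to 48 reads in WT, and the difference of 1.92 ± 0.48 did not pass (adjusted p = 0.374, and 0.378 to 0.744 over the alternatives). Cdk19 was 7.80 to 30.4 FPKM in Taf5 MUT and 0.460 to 13.9 in WT (1.78 ± 0.83, adjusted p = 0.633), with overlapping groups. In Taf13 MUT blastocysts Cdk19 was 0.805, 0.154 and 4.5 FPKM against 1.06 to 20.7 in WT (-2.03 ± 1.06, adjusted p = 0.594). Embryo sex was uneven in the Taf13 line too. The Y-linked level was 7.975 to 8.421 in WT blastocysts, 0 in MUT 1 and MUT 3, and 8.031 in MUT 2. At E6.5 it was 1.835 and 1.03 in MUT and 0.2538 to 6.981 in WT. With this level as a term, the call for Med15 at E6.5, given below, was lost.

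Members differed widely in how much they varied between blastocysts of the same group. Over 21 WT and HET blastocysts the SD of log2(FPKM + 1) within groups was lowest for Med19 (0.18), Med6 (0.18) and Med28 (0.19). It was highest for Cdk19 (1.39), Med23 (1.12), Med13l (0.99), Cdk8 (0.88) and Med12 (0.80). The stable members were short and deeply covered, with a mean of 767 reads for Med19 and 3127 for Med28 against 68.4 for Cdk19 and 67.5 for Med12. Across the 33 genes the Spearman correlation of this SD with the mean read number was -0.81 and with coding length 0.61. Those points share the same libraries. Zero reads were found for Med12l in 5 of all 57 libraries, Cdk19 in 3, Med12 and Med23 in 2 each and Cdk8 in 1. A spread of this size limits what a comparison of 3 or 4 single blastocysts can show for Cdk19, Med23, Med13l, Cdk8 and Med12. Med9, Med10 and Med19 of the middle module varied by an SD of at most 0.24. The modules overlapped, since Med26 of the middle module had an SD of 0.55 and Ccnc of the kinase module 0.31.

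**Figure D2:**
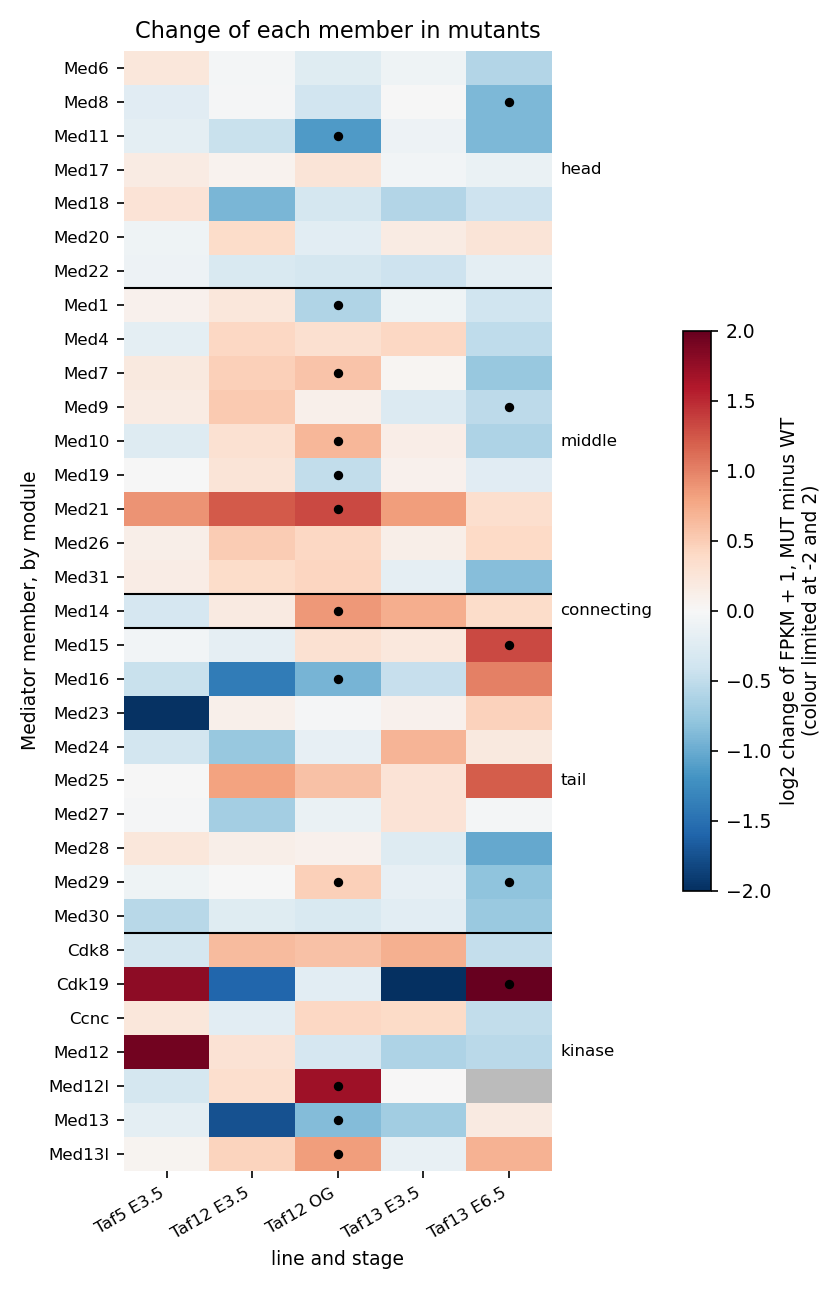
Change of each member (rows, grouped by module) between MUT and WT in each line and stage (columns), as colour on the log2(FPKM + 1) scale; dots mark changes that passed limma, and the grey cell is Med12l at E6.5, which was not tested. Dots occur in Taf12 OG (12) and Taf13 E6.5 (5), and Med21 is above 0 in each column.

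Outgrowths probe the peri-implantation period in culture, when trophoblast spreads over the dish. In Taf12 outgrowths 12 of the 33 members passed the test in MUT (36.4%), of which 7 rose and 5 fell. Over all genes 4956 of 13068 passed (37.9%; 18% higher and 19.9% lower), so the members' share was close to the background. The members' median change was 0.08 and that of all genes -0.05. Higher and lower members lay side by side within modules: the middle module had 3 that rose and 2 that fell, the kinase module 2 and 1, the tail 1 and 1, the head 0 and 1, and Med14 rose. In 13 members the MUT and WT values did not overlap, 8 above and 5 below, against 17% and 18.4% of all genes. The authors' deposited table lists 17 members here, 10 higher and 7 lower, where it lists 39.9% of all genes with an adjusted p.

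In the middle module Med21 was 12.8, 13.1, 14.1 and 13.3 FPKM in WT, 11.9, 19.1 and 14.7 FPKM in HET, and 35.1, 33.4, 40.3 and 31.1 FPKM in MUT. The mutant values lay above all others, and Med21 rose by 1.32 ± 0.16 on the log2 scale (adjusted p = 0.000188). Med10, a middle module subunit, was 106, 102, 111 and 134 FPKM in WT and 168, 199, 165 and 184 FPKM in MUT (0.66 ± 0.12, adjusted p = 0.00182). Med7, the partner of Med21, was 94.9 to 103 FPKM in WT and 130 to 173 in MUT (0.58 ± 0.15, adjusted p = 0.0124). HET values were 104 to 121 FPKM for Med10, within the WT range, and 96.7, 78.2 and 127 FPKM for Med7, on both sides of it and below all MUT values. Med1, which binds nuclear receptors through its LXXLL motifs, moved the other way, from 39.1 to 48.7 FPKM in WT to 31.1, 34.3, 22 and 27.6 FPKM in MUT (-0.60 ± 0.15, adjusted p = 0.0112). Med19 fell from 11 to 12.9 FPKM to 6.99 to 9.25 FPKM (-0.49 ± 0.15, adjusted p = 0.0235). The call for Med19 was lost without WT 3 or WT 4, with adjusted p up to 0.0625.

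Med14, the backbone, was 5.61, 7.70, 8.51 and 5.42 FPKM in WT, 7.42, 8.11 and 6.21 FPKM in HET, and 10.2, 19.1, 11.4 and 13.1 FPKM in MUT (0.87 ± 0.23, adjusted p = 0.0124). In the head module Med11, a small subunit that pairs with Med22, was 108, 135, 126 and 137 FPKM in WT, 147, 126 and 109 FPKM in HET, and 54.1, 52, 62.2 and 59.5 FPKM in MUT. The 4 mutants were at less than any control embryo, and Med11 fell by 1.14 on the log2 scale (SE 0.13, adjusted p = 0.000129). No other head member passed. In the tail Med16 fell from 40.4 to 58.4 FPKM in WT to 18.5, 22.9, 29 and 28.2 FPKM in MUT (-0.93 ± 0.19, adjusted p = 0.00351). Med29 was 26.2 to 42.1 FPKM in WT and 43 to 47 in MUT (0.47 ± 0.16, adjusted p = 0.0391). The Med29 call was lost in 6 of 8 fits that left out an embryo, namely WT 2, WT 4 or any of the MUT embryos, with adjusted p from 0.0128 to 0.107 over the 8.

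**Figure D3:**
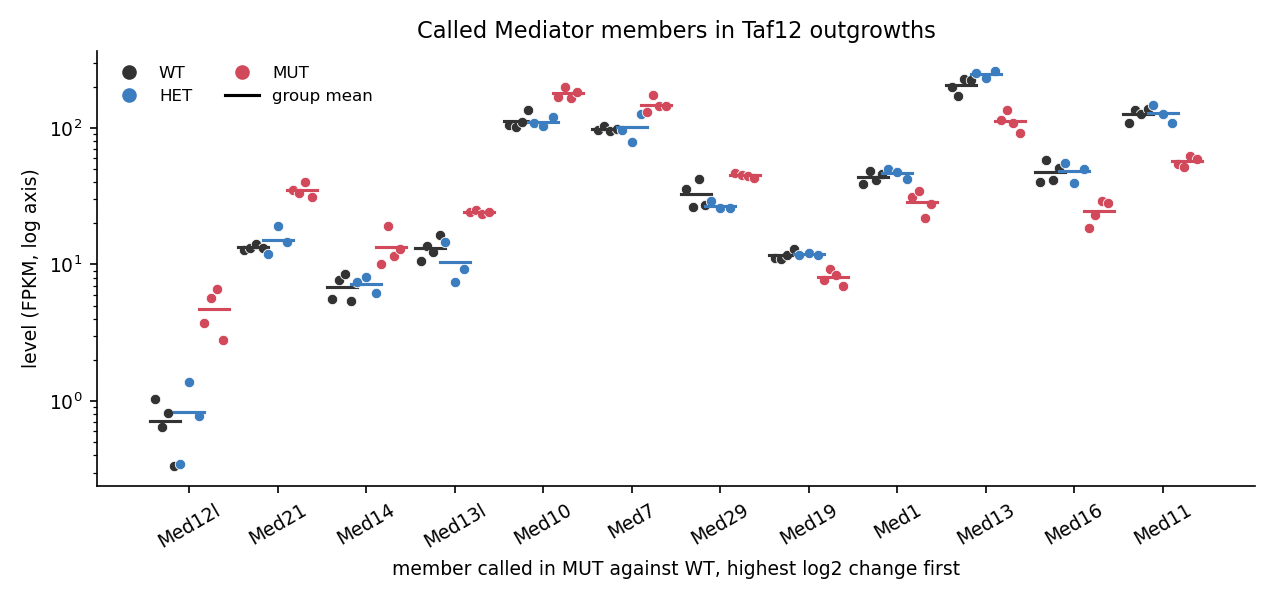
Levels in FPKM (y axis, log scale) of the 12 members that passed the test in Taf12 outgrowths (x axis, highest log2 change first), by embryo and genotype, with bars at group means. MUT points sit apart from WT points, and HET points lie among or near the WT points, above them for Med13, for example 31.1 to 40.3 against 12.8 to 14.1 FPKM in WT for Med21 and 52 to 62.2 against 108 to 137 FPKM for Med11.

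Within the kinase module Med13 and its paralog Med13l moved in opposite directions. Med13, which links the kinase to the core and is the target of Fbxw7 ubiquitin ligase, was 200, 170, 226 and 226 FPKM in WT outgrowths, 253, 233 and 263 FPKM in HET, and 114, 136, 109 and 91.0 FPKM in MUT, and fell by 0.87 on the log2 scale (SE 0.14, adjusted p = 0.000969). Med13l was 10.7, 13.7, 12.3 and 16.4 FPKM in WT, 14.6, 7.41 and 9.30 FPKM in HET, and 24.3, 25.2, 23.2 and 24.2 FPKM in MUT, and rose by 0.84 ± 0.21 (adjusted p = 0.00889). Med12l was 1.04, 0.646, 0.824 and 0.334 FPKM in WT and 3.72, 5.66, 6.59 and 2.80 FPKM in MUT, on 27 to 88 and 221 to 479 reads, and rose by 1.70 ± 0.30 (adjusted p = 0.00141). WT and MUT did not overlap for any of these 3 genes, and all HET values of Med13 lay above WT. Brip1os, which overlaps Med13 on the other strand, was 111 to 159 FPKM in WT and 51.3 to 170 in MUT. Med12 was 2.83 to 4.61 FPKM in WT and 1.17 to 4.69 in MUT (adjusted p = 0.417). Cdk8 was 2.95 to 4.66 FPKM in WT and 4.18 to 12.6 in MUT (adjusted p = 0.189), and Cdk19 was 36.2 to 52.1 FPKM in WT and 26.8 to 58.1 in MUT (adjusted p = 0.476).

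Levels can be set side by side between paralogs only per length. The lengths that the deposited FPKM imply bear no relation to the coding lengths of these genes (Spearman 0.10 over the 33 members, with 153 bases implied for Med13 against a coding length of 6513), so recovered reads were divided by coding length and by library depth. On that scale, reads per coding kb per M reads, Med13 was 4.91 ± 0.56 (SD, n = 4) in WT outgrowths and 2.56 ± 0.43 in MUT, and Med13l was 2.24 ± 0.38 and 3.90 ± 0.15. Med13l thus made up 27.3% to 36.2% of the pair in WT, 18.3% to 28.9% in HET and 56.7% to 65.3% in MUT. Med12l made up 28.4% to 60.3% of the Med12 and Med12l pair in WT, 15% to 49.2% in HET and 71.0% to 92.9% in MUT. In WT blastocysts the Med12l share was 53.3% to 99.4% over the 3 lines. At E6.5 it was 0% to 18.5% in WT.

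The same scale shows the order of the members in WT embryos. Med28, Med10 and Med7 were the 3 most abundant in each of the 5 sets, at 379 to 705, 249 to 446 and 142 to 258 reads per coding kb per M reads. Med12 was among the lowest 5 in each set, at 0.288 to 1.68. At this end of the order the SDs overlap: in Taf13 blastocysts Med12 was 1.68 ± 1.82 and Med23 1.64 ± 1.27. Cdk19 went from 3.32 to 6.24 in WT blastocysts to 21.3 ± 2.94 in WT outgrowths and 0.539 ± 0.432 in WT embryos at E6.5. Cdk8 stayed between 3.99 and 8.06 in the WT means of all sets. Cdk19 therefore made up 76.2% to 86.2% of the kinase pair in WT outgrowths and 0% to 10.5% in WT embryos at E6.5. The sets differ in line or stage and were not tested against each other on this scale, so these levels are a description without a test.

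**Figure D4:**
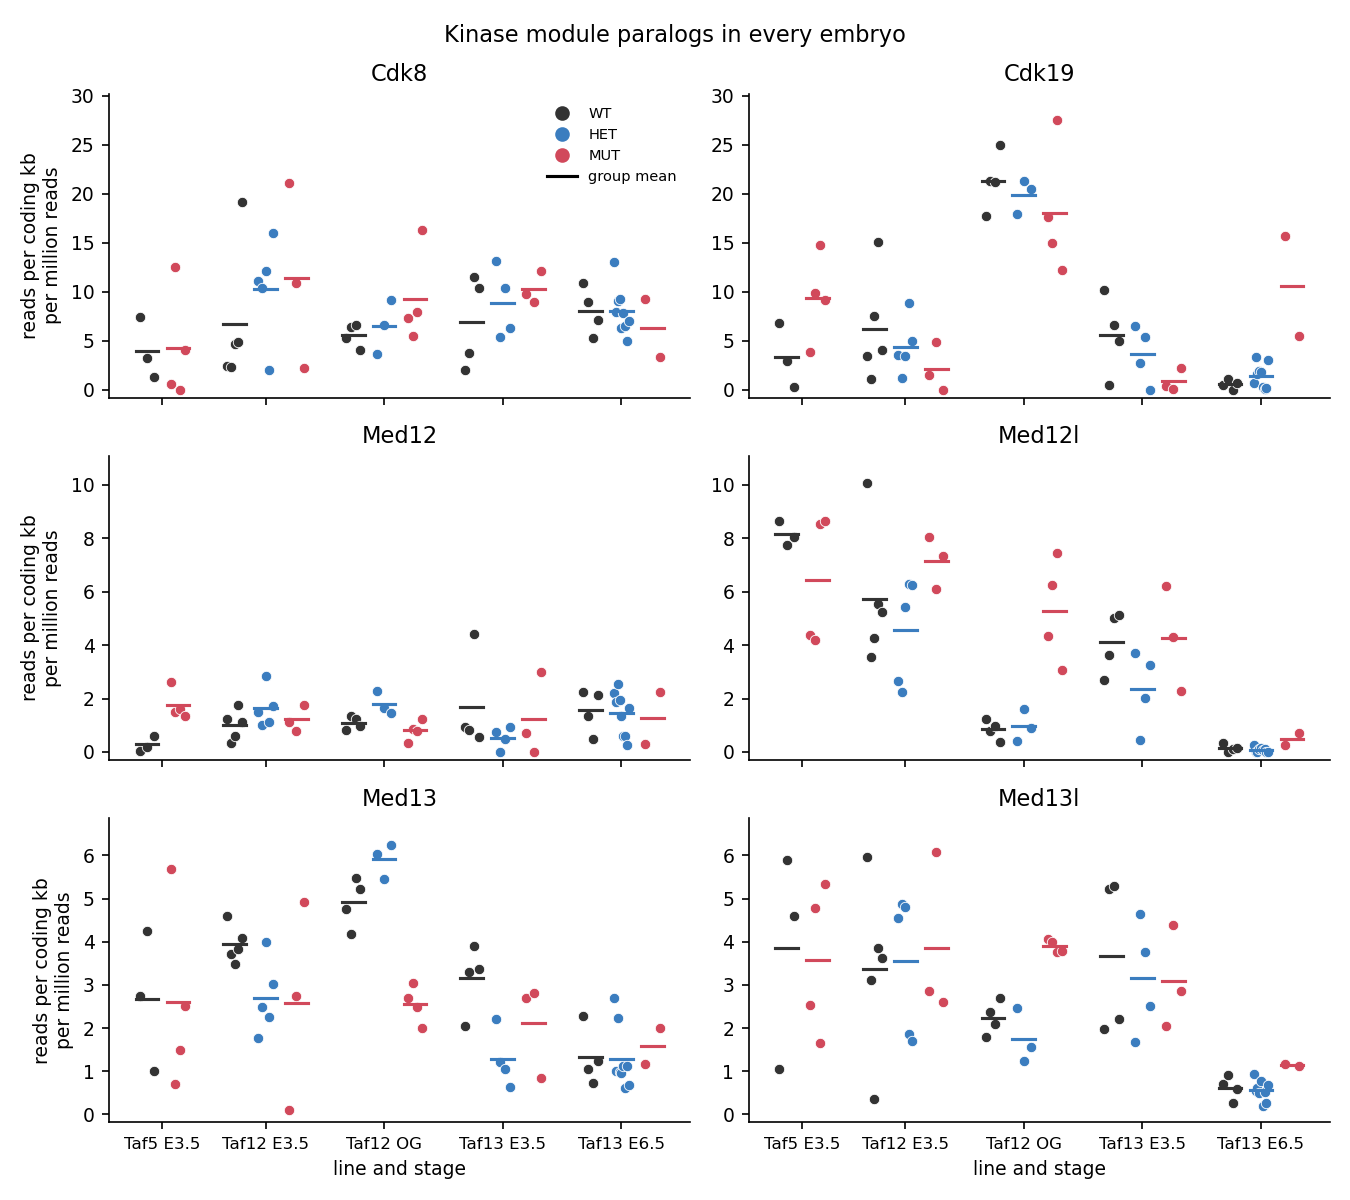
Reads per coding kb per M reads (y axis, the same scale for the 2 genes of a row) of the kinase module paralogs in every embryo, by line and stage (x axis) and genotype, with bars at group means. Cdk19 is highest in outgrowths (21.3 in WT) and near 0 in WT embryos at E6.5, where it is 5.48 and 15.7 in the MUT embryos, and Med12l is higher in MUT than in WT outgrowths (5.27 against 0.843).

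Other measures moved with the outgrowth groups. Mitochondrial reads were 1.45% to 2.17% in MUT, 0.951% to 1.33% in WT and 1.07% to 1.41% in HET. The summed level of 8 trophectoderm markers was 23142 to 32892 FPKM in MUT and 5716 to 10597 in WT. Such a sum is weighted to the genes of highest FPKM. The median log2 change over these 8 was 0.11, with Krt8, Krt18 and Cdx2 rising and Tead4 falling. The summed level of 12 primitive and visceral endoderm markers was 83.0 to 650 FPKM in MUT against 349 to 1777 in WT, and 7 of 11 tested fell. It was 152 to 340 FPKM in HET, below every WT outgrowth, with 0 of the 11 called. The 11 epiblast markers summed to 5474 to 13003 FPKM in MUT and 1214 to 2509 in WT. Dppa5a, an epiblast gene, rose (3.32), while Utf1 and Esrrb fell, and Sox2, Fgf4, Tdgf1, Esrrb and Gdf3 had 0 reads in every MUT outgrowth. Fgf4 and Tdgf1 were also at 0 in every HET outgrowth, as was Nanog, and only 6 of the 11 were tested. Over those 6 the median log2 change was -0.29, opposite in direction to the sum. The 7 trophoblast giant cell markers summed to 13082 to 22493 FPKM in MUT against 25829 to 33151 in WT, with 2 higher and 2 lower. Their median log2 change was 0.91, again opposite in direction to the sum. The part of cell composition and RNA quality in the Mediator changes was not tested.

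Genes that work with Mediator were read against the same background in Taf12 outgrowths, 18% of all genes higher and 19.9% lower. Of 12 RNA polymerase II subunits 2 rose and 1 fell, with Polr2a, the largest subunit, up by 1.13 ± 0.14 (adjusted p = 0.000168), Polr2l up by 0.58 and Polr2h down (-0.40). Polr2a also rose in Taf12 MUT blastocysts (1.58 ± 0.26, adjusted p = 0.0152). Of 15 tested elongation factors and kinase partners 2 rose, Aff4 (0.84 ± 0.09, adjusted p = 0.00011) and Ell2 (0.50), both of the super elongation complex that Med26 recruits. Of 11 cohesin genes 6 fell and 0 rose, with Smc3 at -0.65 and Smc1a at -1.05, and the list median was -0.53. Of 16 tested activators known to bind Mediator 1 rose and 8 fell, among them Srebf2 (-2.22), which binds Med15, Trp53 (-1.64), which binds Med17, and Smad3 (-2.55). These lists were drawn up with earlier results of the data known, and the genes in them are not independent of each other.

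Whether the Taf12 MUT effect differed between stages was tested with each stage set against its own WT. Med1, Med11 and Med19 had lower effects in outgrowths than in blastocysts, by -0.83 ± 0.26, -0.68 ± 0.21 and -0.75 ± 0.22 (adjusted p = 0.0461, 0.0376 and 0.0319). That is 3 of 33 members, where 1253 of 11187 genes (11.2%; 5.85% higher and 5.35% lower) differed. Over the 16 fits that left out an embryo the number called ranged from 0 to 3. It was 0 without E3.5 MUT 2, OG WT 3 or OG WT 4 and 1 without E3.5 MUT 1. None of Med1, Med11 and Med19 was called without OG MUT 4 either. Med1 was called in 5, Med11 in 4 and Med19 in 11 of the 16 fits. No member differed between the blastocyst effects of any pair of lines, where 2 of 10686 genes did for Taf12 against Taf5 (0.0187%), 1 of 10575 for Taf13 against Taf5 (0.00946%) and 5 of 11574 for Taf12 against Taf13 (0.0432%). Unadjusted p was under 0.05 in 3, 2 and 3 members, against 8.28%, 6.55% and 10% of all genes. The smallest belonged to Cdk19, whose Taf12 and Taf13 effects minus the Taf5 effect were -3.37 ± 1.24 and -3.81 ± 1.45 (adjusted p = 0.496 and 0.721), and to Med9 for Taf12 against Taf13 (0.80 ± 0.26, adjusted p = 0.245).

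In Taf13 embryos at E6.5, with only 2 MUT embryos, 5 of 32 tested members passed (15.6%), where 1880 of 14417 genes did (13%; 6.64% higher and 6.4% lower). Cdk19 and Med15 rose and Med8, Med9 and Med29 fell. Med12l was below the filter. The members' median change was -0.32 against 0.03 over all genes, and 12 of 32 lay above 0. The authors' deposited table lists 9 of 33 members here, 2 higher and 7 lower, where it lists 23.5% of genes with an adjusted p. Beyond the 5 above, it lists Med1, Med4, Med7 and Med28 as lower. Cdk19, the kinase paralog, was 0.910, 2.21, 0 and 1.26 FPKM in WT, from 0.144 to 6.76 with a median of 3.24 FPKM in HET, and 29.6 and 10.4 FPKM in MUT. Both mutants were above all 13 control embryos, and Cdk19 rose by 3.27 ± 0.76 (adjusted p = 0.011). Its paralog Cdk8 was 4.38 to 7.40 FPKM in WT and 6.17 and 2.25 FPKM in MUT (adjusted p = 0.336). Cdk19 was 62.8% and 61.9% of the kinase pair in the MUT embryos against at most 30.3% in any control. Its effect was larger at E6.5 than in Taf13 blastocysts by 5.30 ± 1.33 (adjusted p = 0.0288), the only 1 of 32 members that differed, where 401 of 10911 genes did (3.68%; 1.88% higher and 1.8% lower). The call was lost without E3.5 MUT 2 or E6.5 MUT 1, with a pseudocount of 0.1 and with the replicate block (adjusted p = 0.0107 to 0.242 over the 22 alternatives).

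Med15, the tail subunit bound by SREBP and Smad factors, was 52.8, 33.9, 27.8 and 55.9 FPKM in WT, 19.7 to 68.4 with a median of 44.9 FPKM in HET, and 114 and 93.9 FPKM in MUT (1.32 ± 0.41, adjusted p = 0.0459). Med8, a head subunit, was 75.2 to 115 FPKM in WT, 68.5 to 127 in HET, and 40.1 and 52.9 in MUT (-0.90 ± 0.25, adjusted p = 0.0267). Med29, a tail subunit, was 57.8 to 91.4 FPKM in WT, 63.8 to 106 in HET, and 37.3 and 47.6 in MUT (-0.81 ± 0.22, adjusted p = 0.0261). Med9 was 80.9 to 98.8 FPKM in WT, 74.0 to 94.2 in HET, and 60.5 and 60.9 in MUT (-0.52 ± 0.15, adjusted p = 0.0367). In all 4 the MUT values lay outside the range of the 13 controls. Med29 thus fell at E6.5 in Taf13 MUT and rose in Taf12 MUT outgrowths, which are different lines and stages. Without MUT 1 no member was called, and without WT 2 only Cdk19 was. The call for Cdk19 held in the other 5 fits that left out an embryo and was lost without MUT 1 (adjusted p = 0.194), that for Med9 was lost in all 6 (0.0529 to 0.203), and that for Med15 in 4, without WT 2, WT 3, MUT 1 or MUT 2 (0.0434 to 0.298 over the 6).

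**Figure D5:**
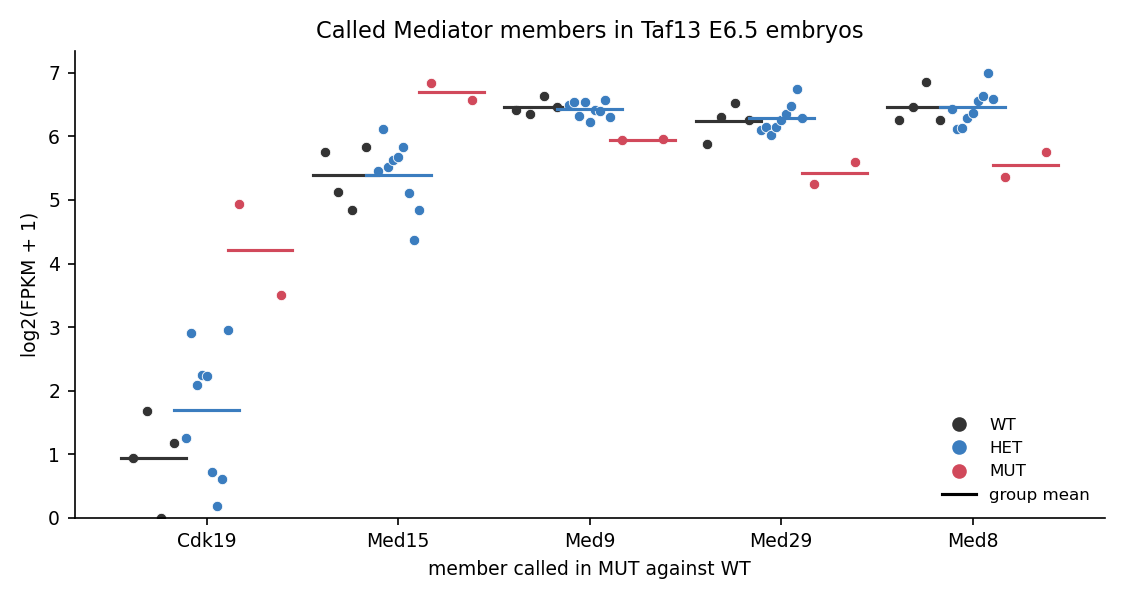
Level on the log2(FPKM + 1) scale (y axis) of the 5 members that passed the test in Taf13 embryos at E6.5 (x axis), by embryo and genotype, with bars at group means. The 2 MUT points lie above all 13 control points for Cdk19 and Med15 and below them for Med8, Med9 and Med29.

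Several measures moved with the E6.5 groups. Library WT 3 and library HET 8 had more of the short and less of the long transcripts: over 14230 genes the median deviation from the control median was 0.36 and 0.57 for transcripts of at most 1500 bases and -0.24 and -0.29 for those of at least 5000, and members with a coding length under 1000 bases deviated by 0.43 and 0.64. Both MUT embryos deviated the other way, by -0.56 and -0.45 for the short members and by 0.15 and 0.33 for the others. Over all genes they deviated by -0.21 and -0.09 for the short transcripts and by 0.28 and 0.15 for the long. WT 1 deviated in the same direction as the MUT embryos, by -0.32 for the short members and 0.22 for the others. Over all genes its deviation was -0.18 for the short transcripts and 0.22 for the long. Every MUT value lay above every WT value in 4 members (18.8% of all genes) and below in 14 of 32 (17.7% of all genes). Without WT 3 and HET 8, an alternative chosen after seeing the data, Cdk19, Med15, Med8, Med9 and Med29 passed, and no other member did. Of 10 tested epiblast markers 8 fell in MUT, their summed level was 749 and 831 FPKM against 3278 to 4812 in WT, and Pou5f1, Fgf4 and Gdf3 had 0 reads in both. Of 12 primitive and visceral endoderm markers 4 rose and 0 fell, with a median log2 change of 0.69. Their summed level was 6972 and 9488 FPKM in MUT and 7808 to 12419 in WT. Of 8 trophectoderm markers 2 fell and 0 rose. The 11 maternal decidua and blood markers summed to 1702 and 4761 FPKM in MUT and 139 to 4736 in WT, and 3 rose. The part of these marker and length differences in the Mediator changes was not tested. Of 12 RNA polymerase II subunits 3 fell (Polr2c, Polr2h and Polr2j) and 0 rose, and of 14 activators 2 rose and 3 fell, where 6.64% of all genes were higher and 6.4% lower, among them Klf4 up by 1.66 and Etv4 down (-2.16).

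No member passed the test between heterozygous and WT embryos. In Taf12 blastocysts and Taf13 blastocysts 0 of 33 members and 0 of all genes (0%) passed limma with Benjamini-Hochberg adjustment, and voom called 0 members. There 1 member each had an unadjusted limma p under 0.05, against 3.51% and 4.33% of all genes. In Taf12 outgrowths 0 members and 4 of 13068 genes passed (0.0306%), and at E6.5 0 of 32 members and 0 of 14417 genes did. An unadjusted limma p under 0.05 was found for 0 members in either, against 4.37% and 1.21% of all genes. The members with the smallest p were Med6 in Taf12 blastocysts (-0.52 ± 0.22, limma adjusted p = 1.0) and Med13 in Taf13 blastocysts (-1.37 ± 0.46, limma adjusted p = 0.999). Med12 in Taf12 outgrowths was 7.97, 5.88 and 5.16 FPKM in HET, all above the 2.83 to 4.61 FPKM of WT (0.62 ± 0.32, limma adjusted p = 1.0). Med21 was close to WT in HET of each set, at -0.22, 0.16, -0.02 and 0.22 in Taf12 blastocysts, Taf12 outgrowths, Taf13 blastocysts and Taf13 E6.5 embryos.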

How the data were processed

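RNA of single embryos was prepared with a low-input kit and sequenced in paired reads, per the labels' protocols. The authors deposited FPKM per gene and, per the file headers, a table of their comparisons with mean normalised counts, log2 fold changes and their errors, a test score, and p-values. The submitters' processing notes name Trimmomatic 0.39, FastQC 0.11.9, STAR 2.7.6a, R 4.2.1, DESeq2 1.36.0 and GRCm39, with no roles. Neither read counter nor strandedness is stated there.

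For every line and stage, log2-transformed FPKM (pseudocount 1) was fitted on its own with limma 3.58.1 (R 4.3.3; trend, robust, two-sided). Genes needed 1 FPKM in as many libraries as the smallest group has; calls were Benjamini-Hochberg adjusted p under 0.05 over all of them. This scale understates changes of low genes. Effects were compared between sets, each against its own WT. Whole reads were recovered from FPKM and the deposited mean normalised counts (99.61% of values up to 500 reads whole within 0.05; 4.55 to 21.59 M reads per library) for voom and for levels per coding length (GENCODE M21). Named members were those called, or up to 3 of smallest p. Replicate numbers were not taken as pairs. Fits were run on simulated counts with the same spread setting for every gene, and genes lowest in reads were left unchanged. That simulation does not cover members as variable as Cdk19 or Med23. Members and lists were chosen with earlier results of these data known.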

Additional observations from a re-analysis of the deposited data

Results flagged for a closer look

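A library far from the rest of its group was found once among 69 member and group combinations checked, where chance gives about 1 in 20: Med23, a tail subunit, was 13.7 FPKM in Taf13 E6.5 WT 3, while the nearest of the 4 WT values was 42.2. That library also carried excess short transcripts.

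The MUT effect passed the test of a difference between stages for 4 members. In the Taf12 line these were 3 of 33, where 11.2% of all genes differed. In the Taf13 line it was 1 of 32, where 3.68% of all genes did. In the Taf12 line the log2 difference of the changes, outgrowth minus blastocyst, was -0.83 for Med1, -0.68 for Med11 and -0.75 for Med19. These calls held in only 5, 4 and 11 of the 16 fits that left out an embryo. In the Taf13 line the E6.5 effect on Cdk19 exceeded the blastocyst effect by 5.30, a call lost without E3.5 MUT 2 or E6.5 MUT 1.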

How the results depend on the processing

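In Taf12 outgrowths 10 to 14 members passed when single embryos were left out, and 10 to 16 under the other settings, 12 by voom (6 higher and 6 lower). Of the 12, 10 were called at each setting that tested them, the exceptions being Med19 and Med29; Med12l could not be tested with the filter at 5 FPKM. Setting aside single embryos gave 0 to 5 at Taf13 E6.5, 0 to 3 for the Taf12 stage difference and 0 to 1 for the Taf13 stage difference, and 0 in the other 10 comparisons. At Taf13 E6.5 the main 5 became 3 with no filter on low values, 8 with WT and HET pooled as control, and 1 with replicate number as a block. Calls over all genes at each other setting are not given here. The member counts in this paragraph therefore cannot be read against that background. Taf12 MUT blastocysts, at 0 members, gave 1 by voom and 1 with pooled controls, Med21 in both. At most 3 of 11 same-numbered pairs correlated above 0.1 in any set, with values from -0.44 to 0.38 at Taf13 E6.5. Library differences such as the length deviations also enter these correlations, so they cannot tell whether replicate numbers mark a shared origin. The block left 10 calls in Taf12 outgrowths, 1 at Taf13 E6.5 and 1 for the Taf12 stage difference. It left 0 for the Taf13 stage difference and 0 in all other comparisons. The Taf13 stage difference was also 0 with a pseudocount of 0.1. Med23 in E6.5 HET turned from 0.32 to -0.0776 without WT 3, over a range of -0.0776 to 0.465. Voom shifted the median of all genes to 0.18 at E6.5 and to -0.15 in outgrowths, and median centring to -0.13 at E6.5; after centring, E6.5 calls were 1 higher and 4 lower. The causes were not tested. Depth limits Med12 and Cdk19, on under 100 reads in most blastocysts.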
